A study of Mus musculus with 20 samples.

Results

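The Bcl2 family sets whether a cell's mitochondria release the factors that start caspase activation, and 10 of its genes were followed through 20 mouse mammary tumours that differed in hormone and antibody treatment. The genes were chosen by their place in the family: the anti-apoptotic Bcl2, Bcl2l1 and Mcl1, the effectors Bax and Bak1, and the BH3-only genes Bbc3, Bcl2l11, Pmaip1, Bid and Bad. Each gene was represented by the annotated transcript with the highest total over the 20 libraries. All 10 passed the filter on low values, among 19876 genes that did so and 38996 genes with a name.

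The tumours grew from SSM3 cells, an oestrogen receptor-positive mouse mammary tumour line, placed in the mammary gland of mice of the 129S6/SvEv strain, which were 2 to 4 months old. Treatment started when tumours measured about 150 mm3. Each of the 4 groups held 5 tumours, biological replicates by the design text. The vehicle group had sham surgery and daily injections of 5% ethanol in saline for 25 days, without antibody. The anti-PD-1 group had the same sham surgery and vehicle, and 250 µg of an antibody against the checkpoint receptor PD-1 on days 3, 5 and 7 after surgery. The letrozole group was ovariectomised and given letrozole, an inhibitor of the aromatase enzyme that makes oestrogens, at 1 mg/kg in 5% ethanol daily for 25 days. The letrozole + anti-PD-1 group had the ovariectomy, letrozole and the antibody. No group had ovariectomy or letrozole alone, so their effects cannot be told apart and "letrozole" stands here for the pair. All tumours derived from a single cell line, and whole tumours were sequenced, host cells included.

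As background, the anti-apoptotic members hold the effectors in check at the outer mitochondrial membrane. Activated Bax and Bak1 form pores there, which let cytochrome c escape and set off the caspases. BH3-only proteins sense stress and act on both sides: Bcl2l11 (Bim), Bbc3 (Puma) and Bid bind broadly, while Bad and Pmaip1 (Noxa) each bind a subset of the anti-apoptotic members. In mammary tissue Bcl2 is a classical oestrogen-responsive gene and a clinical marker of oestrogen receptor-positive cancers, and withdrawal of survival signals acts on the family through transcription, phosphorylation and protein turnover. Only the first of these is seen by RNA-seq.

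Each library held 12497282 to 31387527 reads, summed over the transcripts used. The progesterone receptor gene Pgr, a target of oestrogen receptor, checked the hormone treatment: it fell 11.6-fold in letrozole against vehicle (log2 difference -3.54, adjusted p = 2.4e-08, limma), and the tumours of these groups did not overlap (as for 3.68% of all genes). The epithelial keratins Krt8 and Krt18, the adhesion molecule Epcam and the oestrogen receptor gene Esr1 were present in every library, with Esr1 between 4100.1 and 7407 normalised counts. A normalised count is the authors' read count divided by a size factor for the library. Vehicle replicate 3, which had the highest fibroblast marker level of its group, and anti-PD-1 replicate 1, which had the fewest reads and the fewest detected genes (21001), stand apart from the other libraries. They were chosen by name and not by a rule applied to all libraries. Vehicle replicate 4 had the lowest fibroblast marker level of its group, a mean log2 of 7.34, against 11.9 in replicate 3 and 9.64 over the group. In the tests of treatment vehicle replicate 4 was left out only singly.

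The sequences that bear on these genes are the promoters, since 1 of the treatments removes the hormone of a DNA-binding receptor. RefSeq promoter windows on GRCm38.p6, from 250 bases before to 50 after a start, were found for 9 of the 10 members (15 windows). The palindromic oestrogen response element (GGTCA, any 3 bases and the reverse complement TGACC), searched on both strands, was in 0 of the 15 windows and in 0.0700% of all 32851 windows. Its single arm GGTCA was in 6 of the 15 windows, those of Bcl2l1, Bak1, Bcl2l11 and Bad, against 40.5% of all windows. The FOXO motif GTAAACA was in 2 of the 15, of Bbc3 and Bcl2l11, against 3.65% of all. The STAT motif TTCNNNGAA was in 0 of the 15, against 8.30% of all. A match is a string of letters in a window and not a measured binding site. These 4 stretches show 1 match each in the BH3-only genes Bcl2l11, Bbc3 and Bad and in the anti-apoptotic Bcl2l1, with the motif in capitals and read 5′ to 3′ on the gene's strand; further GGTCA matches of Bcl2l11, Bad and Bcl2l1 are not printed. The RefSeq start behind each stretch lies 1 base (Bcl2l11), 645 bases (Bbc3), 40 bases (Bad) and 2177 bases (Bcl2l1) from the start of the transcript measured.
Bcl2l11, chr2:128125801-128125827, plus strand, GTAAACA: agacactaggGTAAACAcgccggggtg
Bbc3, chr7:16310084-16310110, plus strand, GTAAACA on the opposite strand: ctggcgggttTGTTTACaaacaatggg
Bad, chr19:6942508-6942532, plus strand, GGTCA: aaactgattgGGTCAgatctgtgac
Bcl2l1, chr2:152828579-152828603, minus strand, GGTCA on the opposite strand: actggccatgTGACCttggacaggc

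Bmf, a BH3-only gene outside the 10, is shown as 1 of the genes that passed the test for letrozole (values follow further on). Stat5a and Stat5b passed it too and also hold GGTCA in their windows, which are not printed. No match was found for Becn1 or Birc5, which passed as well. Matches were found for Tnfsf10, Ripk1 and Aifm1, which did not pass, so the motif did not separate the genes that passed from the others. GGTCA was in 40.5% of all windows. The 250 bases before the Bmf RefSeq start, which lies 1 base from the start of the transcript measured, hold GGTCA 2 times, in capitals.
Bmf, chr2:118549687-118549936, minus strand: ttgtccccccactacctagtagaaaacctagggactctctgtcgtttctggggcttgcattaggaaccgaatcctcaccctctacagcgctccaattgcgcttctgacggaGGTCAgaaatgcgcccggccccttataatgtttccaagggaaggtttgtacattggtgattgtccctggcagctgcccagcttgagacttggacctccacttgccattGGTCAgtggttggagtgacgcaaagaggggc

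Levels of different genes were compared per kilobase of the transcript used. Mcl1, a short-lived guardian protein, had the highest level of the family, 1769 ± 301 normalised counts per kb (SD, n = 20 tumours). Bax followed at 1413 ± 343, Bcl2l1 (Bcl-xL) at 1061 ± 167, Bak1 at 616 ± 71.7 and Bad at 509 ± 82.8. Bbc3 at 366 ± 101 and Bcl2l11 at 353 ± 71.4 could not be placed in order, since their mean log2 gap of 0.03 was below their spread of 0.41 and Bbc3 was the higher in 10 of 20 tumours. Bid at 176 ± 25.4 and Bcl2 at 169 ± 28.2 could not be ordered either, with Bid higher in 12 of 20. Pmaip1 came last in every tumour, at 45.6 ± 31.1. By the transcripts used, the founding member Bcl2 therefore stood in rank 7 to 9 in every one of the tumours, and Mcl1 in rank 1 or 2. Another choice of transcript can change the order, since a shorter transcript of a gene can hold nearly as many counts. Bax-205 had a median of 1457 normalised counts over 801 bases, against 1500.5 over 1100 bases for Bax-203, the transcript used.

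**Figure D1:**
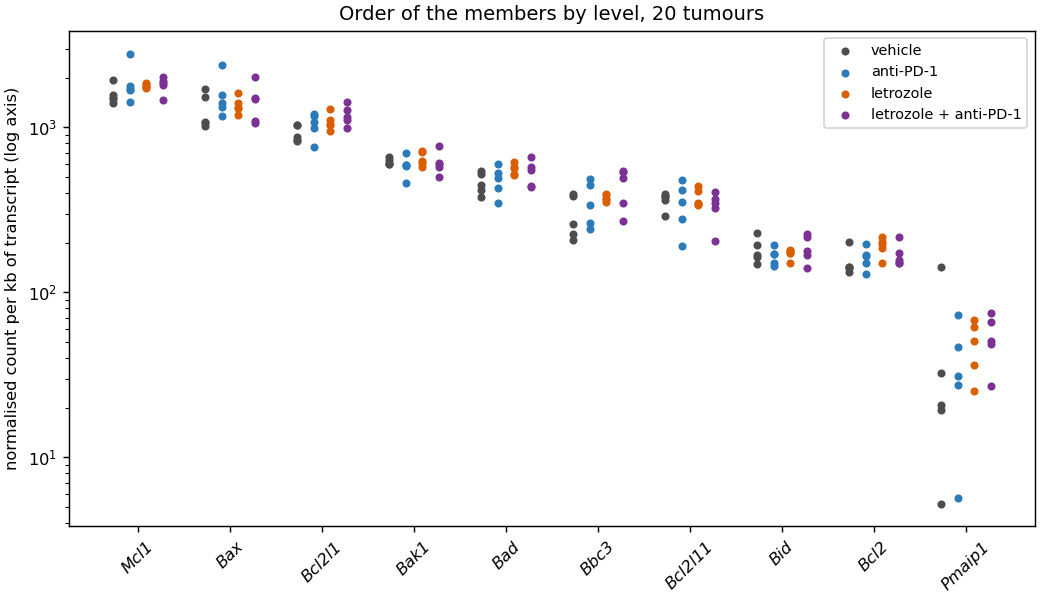
Normalised count per kb of transcript (log axis) for the 10 members, 1 point per tumour, with the 4 groups side by side in colour. Mcl1, Bax and Bcl2l1 lie at the top in all groups, Bbc3 and Bcl2l11 overlap, as do Bid and Bcl2, and Pmaip1 is lowest and most spread.

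With all 20 libraries no member passed the test in any of the 8 comparisons. In letrozole against vehicle 0 of 10 were called by limma, where 0.951% of all tested genes were (189 of 19876, adjusted p under 0.05). In letrozole averaged over both antibody arms, a comparison of 10 tumours with 10, again 0 of 10 were called, where 7.00% of all genes were. At an unadjusted p under 0.05 by limma the counts were 1 and 3 members, beside 2753 and 4551 of the 19876 genes. EdgeR and DESeq2 on the recovered reads also called 0 of 10 in both, with unadjusted counts of 1 and 1 members by edgeR and 1 and 2 by DESeq2. The members' tumours overlapped between groups in each of these comparisons (libraries of the 2 groups did not overlap for 3.68% of all genes in letrozole against vehicle and 0.453% in the averaged comparison). In the averaged comparison the median log2 difference of the 10 was 0.14 (all genes 0.03), and all 10 estimates were at or above 0, from 0.00 for Bax to 0.84 for Pmaip1.

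**Figure D2:**
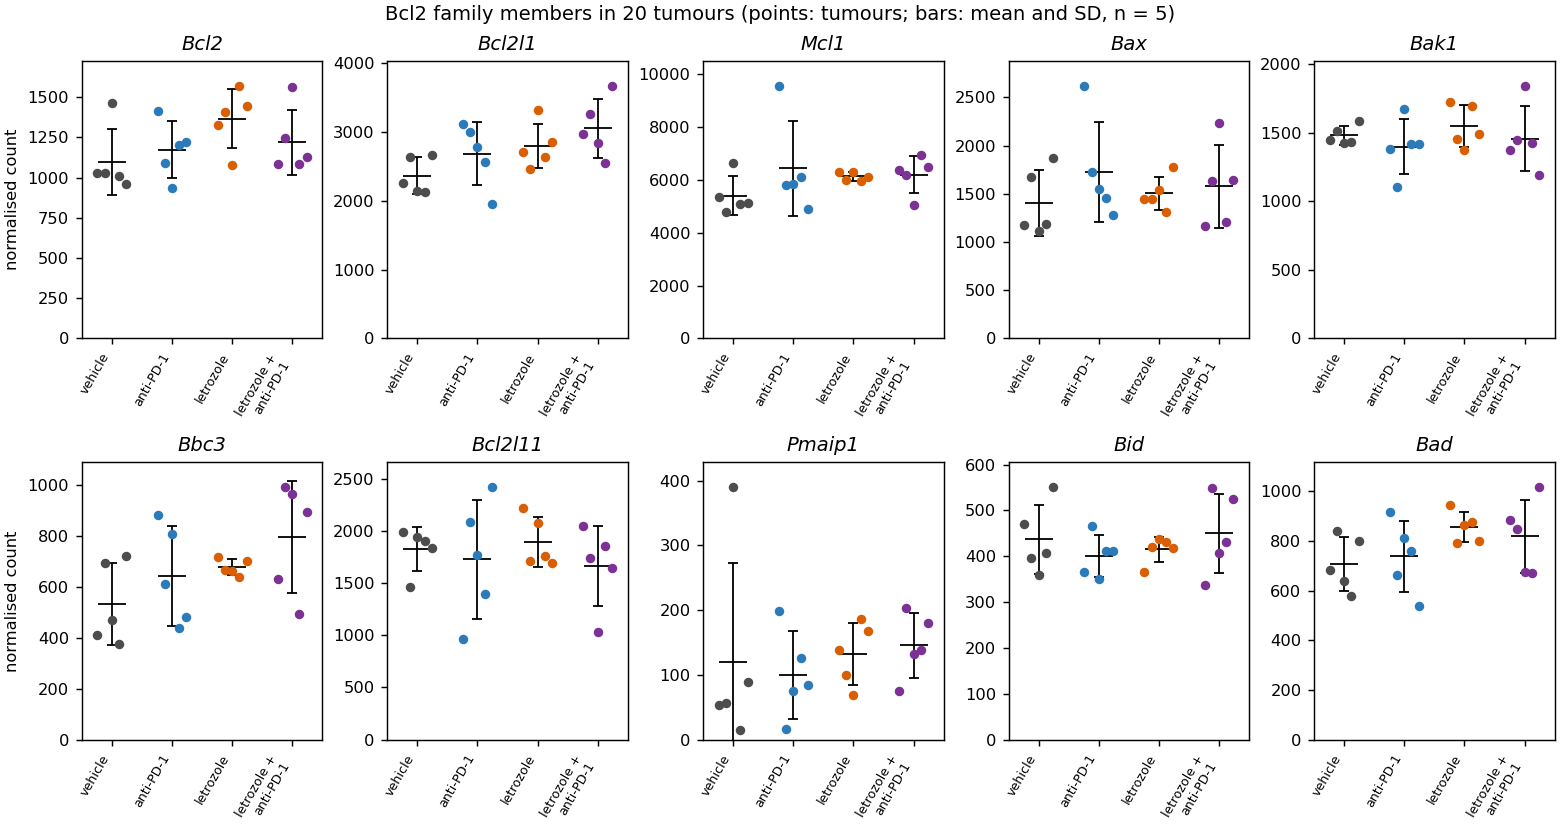
Normalised count of each member in each tumour (points, from replicate 1 at the left to 5 at the right), by group, with the mean and SD over 5 tumours; axes start at 0, and the lower bar of Pmaip1 in vehicle, whose SD is larger than its mean, is cut at 0. The groups overlap for every member, with single tumours far from the rest of a group for Bcl2, Mcl1, Bax and Pmaip1.

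Among the anti-apoptotic genes, Bcl2 had 1028, 1030.2, 1461, 1012 and 958 normalised counts in vehicle tumours 1 to 5 and 1328, 1409, 1079.7, 1567 and 1447 in letrozole tumours. In anti-PD-1 tumours it had 1415, 1089.9, 933, 1200.1 and 1219.5, and in the combination 1085, 1247, 1561, 1084 and 1126. All 5 letrozole tumours lay above 4 of the vehicle tumours, and vehicle replicate 3 lay above 4 of the letrozole tumours. The log2 difference of letrozole against vehicle was 0.32 (95% interval 0.03 to 0.61, adjusted p = 0.296, limma), and the average over both arms was 0.19 (-0.01 to 0.39, adjusted p = 0.252, limma). The other annotated Bcl2 transcript, the coding Bcl2-202 at 266 to 436 normalised counts, gave 0.02 for the average over both arms. Its r with the transcript used was 0.57. Bcl2 had the largest interaction of the family, with a letrozole difference lower by 0.26 on the log2 scale when antibody was given (-0.26, interval -0.67 to 0.14, adjusted p = 1.00, limma).

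The result for Bcl2 turns on the 2 libraries that stand apart. Without vehicle replicate 3 and anti-PD-1 replicate 1, letrozole against vehicle gave 0.43 (adjusted p = 0.047, limma) and the averaged comparison 0.28 (adjusted p = 0.042, limma), both past the threshold. Without vehicle replicate 3 alone the adjusted p-values by limma were 0.069 and 0.082, and without anti-PD-1 replicate 1 alone 0.241 and 0.163. Leaving out both also brought Mcl1 (log2 0.20, adjusted p = 0.045, limma) and Pmaip1 (1.33, adjusted p = 0.031, limma) past the threshold in the averaged comparison. Vehicle replicate 3 and anti-PD-1 replicate 1 held the highest values of their groups for Bcl2, Mcl1 and Pmaip1. Leaving them out raises these letrozole differences by construction, so the calls are not a separate test. The same step raised the calls over all genes, to 1134 in letrozole against vehicle and 2475 (12.6%) in the averaged comparison, so that 1 and 3 members of 10 stood beside more calls everywhere.

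Bcl2l1, whose product Bcl-xL guards the same membrane, had 2256, 2638, 2141, 2126 and 2666 normalised counts in vehicle tumours and 2709.8, 2456, 3311, 2641 and 2859 in letrozole tumours. The anti-PD-1 tumours had 3116, 3003, 2783, 2559 and 1951, and the combination 2965, 3254, 2831, 2544 and 3659.9. The combination tumours were the highest group on average (3051 ± 426, against 2365 ± 267 in vehicle, SD, n = 5), and 4 of the 5 lay above every vehicle tumour. The difference of the combination from vehicle was 0.36 on the log2 scale (interval 0.10 to 0.62, adjusted p = 0.184, limma), in a comparison in which 1.18% of all genes and 0 of 10 members were called. Averaged over both arms, letrozole gave 0.22 (0.03 to 0.40, adjusted p = 0.149, limma), the smallest adjusted p of the family there. All 9 annotated Bcl2l1 transcripts gave a similar estimate, from 0.19 to 0.23, although they share reads.

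Mcl1 lay between 5958 and 6314 normalised counts in the 5 letrozole tumours, the tightest group of any member (6134 ± 165, SD, n = 5, a coefficient of variation of 2.69%). Vehicle tumours had 5358, 4797, 6655, 5108 and 5119, combination tumours 6391, 6172, 5041, 6928 and 6506, and anti-PD-1 tumours 9548, 5794, 5855, 6119 and 4884. The value of 9548 belongs to anti-PD-1 replicate 1 and is the highest of all 20. The averaged letrozole difference was 0.08 (interval -0.11 to 0.28, adjusted p = 0.637, limma) with all libraries.

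**Figure D3:**
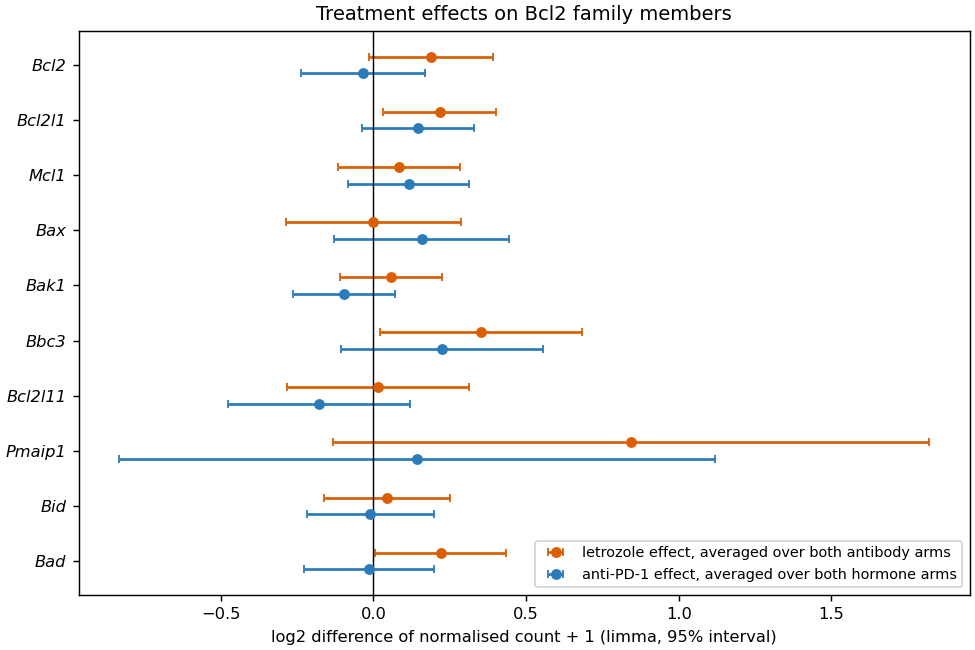
Log2 difference of the normalised count + 1 for the 10 members, averaged over both arms of the other treatment, with 95% intervals from limma, for letrozole (orange) and anti-PD-1 (blue). Letrozole intervals of Bcl2l1, Bbc3 and Bad lie above 0 before adjustment, and every anti-PD-1 interval includes 0. In the letrozole comparison 4551 of all 19876 genes had an unadjusted p under 0.05 by limma.

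Neither effector differed with letrozole beyond the spread of the tumours. Bax had 1174, 1675, 1114, 1192 and 1869.6 normalised counts in vehicle and 1448, 1449.8, 1540.5, 1315 and 1779.7 in letrozole tumours. In anti-PD-1 tumours Bax was at 2616, 1723, 1548, 1461 and 1284, with the highest value again in replicate 1, and in the combination at 1163, 1637, 2234, 1207 and 1648. Its averaged letrozole difference was 0.00 (interval -0.29 to 0.29, adjusted p = 0.999, limma). Bak1 was the steadiest member, with a within-group SD of 0.17 on the log2 scale against a median of 0.20 for genes of a similar level, and ranged from 1102 to 1839 normalised counts over the 20 tumours. Its averaged letrozole difference was 0.06 (-0.11 to 0.22, adjusted p = 0.712, limma), which bounds a change in either direction more closely than for any other member. The ratio of Bcl2 to Bax normalised counts, not per length, had medians of 0.849 in vehicle, 0.633 in anti-PD-1, 0.917 in letrozole and 0.762 in the combination, and ranged from 0.513 to 1.31 within vehicle alone. The group ranges of this ratio overlapped.

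Of the BH3-only genes, Bbc3 (Puma), a target of p53, had 410.3, 696, 469, 376 and 720.4 normalised counts in vehicle tumours and 717, 666, 664, 641 and 704 in letrozole tumours. The anti-PD-1 tumours had 883, 612, 809, 438 and 481, and the combination 633, 992, 967, 494 and 896. Of the vehicle tumours 3 lay below every letrozole tumour, 1 within the letrozole range and 1 above it. The difference of the combination from vehicle was 0.58 (interval 0.11 to 1.05, adjusted p = 0.253, limma), and the averaged letrozole difference was 0.35 (0.02 to 0.68, adjusted p = 0.191, limma).

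Bad, which is switched off by phosphorylation downstream of growth factors, had 682, 839.6, 637, 578 and 801 normalised counts in vehicle and 944, 794, 865, 876 and 800.1 in letrozole tumours. It had 917, 662, 812, 760.4 and 537 in anti-PD-1 tumours and 883, 850.0, 675, 671 and 1016 in the combination. The averaged letrozole difference was 0.22 (interval 0.01 to 0.43, adjusted p = 0.206, limma), with the groups overlapping in both arms.

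Bcl2l11 (Bim), a FOXO target that responds to loss of survival signals, ranged from 968 in anti-PD-1 replicate 1 to 2421 in anti-PD-1 replicate 5. Group means were 1829 ± 213 in vehicle, 1728 ± 570 in anti-PD-1, 1895 ± 238 in letrozole and 1664 ± 385 in the combination (SD, n = 5). The averaged letrozole difference was 0.01 (interval -0.28 to 0.31, adjusted p = 0.964, limma), and its sign turned without anti-PD-1 replicate 1 (-0.08, adjusted p = 0.720, limma). Bid, which links death receptors to mitochondria once caspase-8 cuts it, ranged from 337 to 550.2 normalised counts, with an averaged difference of 0.04 (-0.16 to 0.25, adjusted p = 0.833, limma). The Bid transcript with the most reads is annotated as subject to nonsense-mediated decay, and the coding transcript Bid-201 gave -0.02.

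Pmaip1 (Noxa), which neutralises Mcl1, varied most of the family. It had 53.1, 56.7, 389, 14.3 and 88.3 normalised counts in vehicle and 138, 99.2, 69.0, 186 and 168 in letrozole tumours. It had 199, 15.5, 74.6, 127 and 84.8 in anti-PD-1 tumours and 74.2, 203, 132, 138 and 179 in the combination. Both the lowest and the highest tumour of the series were vehicle tumours, 27.3-fold apart, and the letrozole and combination tumours lay inside that range. The within-group SD was 1.15 on the log2 scale, against a median of 0.50 for genes of a similar level. The averaged letrozole difference was 0.84 by limma (interval -0.13 to 1.82, adjusted p = 0.294) and 0.35 by edgeR on recovered reads (adjusted p = 0.709), so its size is not settled by these data.

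Pmaip1 was also the member that varied with markers of other cells. Over the 20 tumours, with group means removed, its log2 level had r = 0.876 (permutation adjusted p = 0.0080) and rho = 0.803 (permutation adjusted p = 0.021) with the mean of 10 fibroblast markers. With the mean of 10 macrophage markers r was 0.848 (permutation adjusted p = 0.029) and rho 0.779 (permutation adjusted p = 0.021). Without the 2 tumours farthest from the median of the marker mean, vehicle replicates 3 and 4, r was 0.754 and 0.693, and without the 2 libraries that stand apart 0.865 and 0.881. These are 2 of 100 relations computed (10 members by 10 marker lists, 100000 permutations within groups), and no other pair had an adjusted p under 0.05 by both measures. The B cell list rested on 1 tested gene of 7 and the neutrophil list on 2 of 7. The marker means overlapped between groups. The fibroblast mean log2 was 9.64 ± 1.76 in vehicle, 10.1 ± 1.03 in anti-PD-1, 10.6 ± 0.854 in letrozole and 10.3 ± 0.677 in the combination. The macrophage mean was 8.11 ± 1.05, 8.30 ± 0.688, 8.95 ± 0.431 and 8.91 ± 0.465 in the same order (SD, n = 5). Of the macrophage markers 10 of 10 were higher on average with letrozole and 1 passed the test (Cd14, log2 0.49, adjusted p = 0.024, limma), and of the fibroblast markers 8 of 10 were higher and 0 passed by limma. None of the markers of either list was at 0 in all tumours of a group, and the summed fibroblast markers ran from 13535 to 112664 normalised counts in vehicle and from 16379.8 to 98800.2 in letrozole. Their medians were 51092 in vehicle, 43695 in anti-PD-1, 49051 in letrozole and 41068 in the combination. Those of the summed macrophage markers were 3317, 5095, 6902 and 5727 in the same order. The part of these cells in the Pmaip1 values was not tested. In whole tumours fewer cells of a type and less RNA per cell cannot be told apart.

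**Figure D4:**
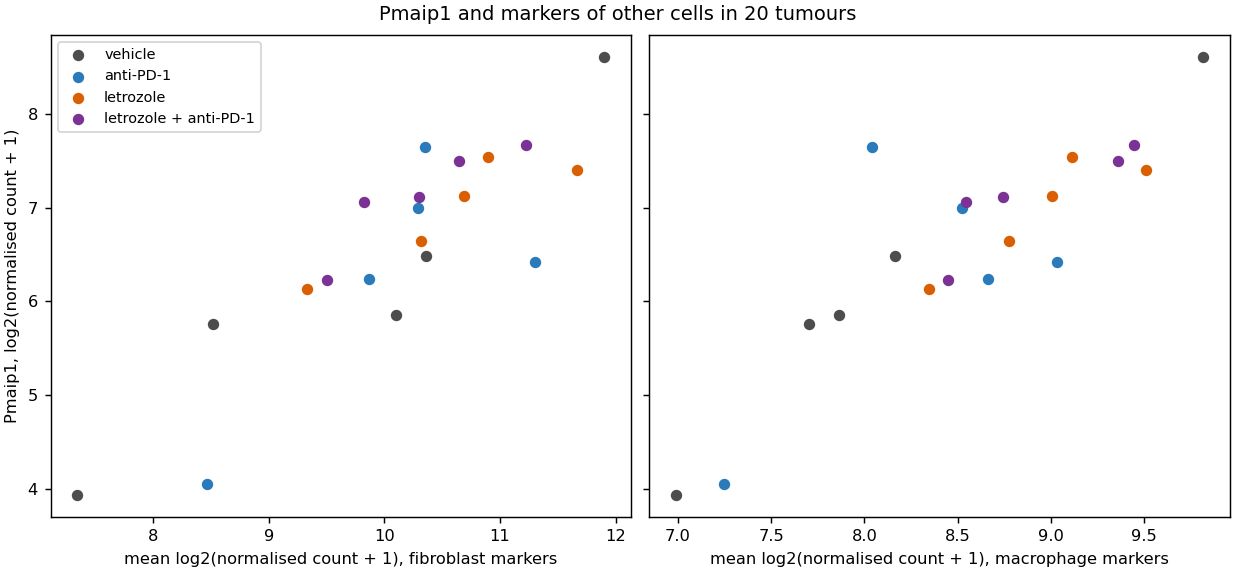
Pmaip1 level against the mean level of 10 fibroblast markers (left) and 10 macrophage markers (right), both as log2(normalised count + 1), 1 point per tumour, coloured by group. Vehicle replicate 3 is highest and vehicle replicate 4 lowest on every axis, and the other tumours lie between them.

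Some members also moved with each other from tumour to tumour. Of the 45 pairs of members, Bax and Bbc3 had a within-group r of 0.816 (permutation adjusted p = 0.016) and rho of 0.848 (permutation adjusted p = 0.019). Bcl2l1 and Bad had r = 0.786 (permutation adjusted p = 0.016) and rho = 0.753 (permutation adjusted p = 0.019). Without the 2 farthest tumours r was 0.798 and 0.662, and without the 2 libraries that stand apart 0.800 and 0.756. Bax and Bcl2l11 ran in opposite directions with r = -0.745 (permutation adjusted p = 0.029), but rho was -0.632 (permutation adjusted p = 0.060) and r fell to -0.49 without the 2 farthest tumours. Tumours that were high in the effector Bax for their group were also high in Bbc3, and all values of a tumour share 1 library and 1 size factor.

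The genes most like each member over the 20 tumours, by Pearson r of log2 values and as a description, were mostly outside the family. For Pmaip1 they were Pi16 (r = 0.948), Prrx2 (0.940) and Cd248 (0.937), the last a marker of stromal cells. For Bbc3 the closest was Phlda3 (0.871), another p53 target. For Bcl2 it was Galnt17 (0.781), for Bcl2l1 Gm4876 (0.892), for Mcl1 Ptms (0.895), for Bcl2l11 Panct2 (0.856), for Bad Gpsm3 (0.846), for Bak1 BC060293 (0.761) and for Bid Rhobtb1 (0.737). Gm45808 led for Bax (0.973), but it shares 17.5% of the exon bases of the Bax transcript on the same strand. Exon overlap also touches Bid (26.0%, with Bcl2l13), Bak1 (25.7%, with Ggnbp1) and Bcl2 (7.76%, with D630008O14Rik), all on the opposite strand. Whether reads were counted by strand is not stated in the sources used here, so the levels of Bid, Bak1 and Bcl2 are uncertain to that extent. The Bax overlap lies on the same strand, so the level of Bax is uncertain with either way of counting.

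No member passed the test for anti-PD-1. Averaged over both hormone arms, 0 of 10 members were called by limma, where 0% of all genes were. At an unadjusted p under 0.05 by limma the count was also 0, beside 748 of the 19876 genes, and edgeR and DESeq2 called 0. The differences ran from -0.18 for Bcl2l11 (interval -0.48 to 0.12) to 0.23 for Bbc3 (-0.11 to 0.56), with 5 members higher and 5 lower. Without the 2 libraries that stand apart they ran from -0.10 for Bak1 to 0.28 for Pmaip1 (0.14 with all libraries), with Bcl2l11 at -0.07, Bax at 0.04 (0.16 with all libraries) and Bbc3 at 0.15, and 0 were called by limma. Against vehicle alone (0% of all genes called) and on top of letrozole (0% called), the smallest adjusted p of any member was 1.00 by limma. For the averaged antibody effect the intervals were -0.26 to 0.07 for Bak1, -0.04 to 0.33 for Bcl2l1, -0.08 to 0.31 for Mcl1, -0.24 to 0.17 for Bcl2, -0.22 to 0.20 for Bid and -0.23 to 0.20 for Bad, while that of Pmaip1 was wider (-0.83 to 1.12). The test of interaction called 0 of 10 members and 0% of all genes. Letrozole on top of anti-PD-1 gave 0 of 10 members by limma, against 1.07% of all genes, with a smallest adjusted p of 0.528.

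Around the family, 5 lists held 71 further genes of the pathway, of which 66 were tested. In the averaged letrozole comparison 5 of the 66 were called (7.58%), a share close to the 7.00% of all genes. Of 16 other family genes 13 were tested (Bcl2l10, Hrk and Bcl2l15 were below the filter), 2 rose and 0 fell. Bmf, a BH3-only gene whose product is released from the cytoskeleton on loss of attachment, had 1261, 531, 1425, 1422 and 865 normalised counts in vehicle and 1418, 1621, 2509, 1624 and 1487 in letrozole tumours. It had 639.6, 1132, 1173, 661 and 1190.1 in anti-PD-1 tumours and 1327, 2020.0, 1114, 1602 and 1809 in the combination. In each arm the groups overlapped, by 2 vehicle tumours just above the lowest letrozole tumour in the first and by 1 combination tumour below 3 anti-PD-1 tumours in the second. The averaged log2 difference was 0.73 (interval 0.34 to 1.11, adjusted p = 0.020, limma), a 1.65-fold rise, with nearly no interaction (0.02, interval -0.74 to 0.79). Each arm alone missed the threshold (0.71, adjusted p = 0.211, limma, in letrozole against vehicle). The averaged call held under 35 of 35 alternatives.

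Becn1, an autophagy gene whose product carries a BH3 domain, rose by 0.29 in the averaged comparison (interval 0.12 to 0.46, adjusted p = 0.038, limma), from 3613 ± 520 in vehicle to 4742 ± 820 in letrozole and from 3760.1 ± 410 in anti-PD-1 to 4284 ± 266 in the combination (SD, n = 5). It lost the call under 15 of 35 alternatives, among them edgeR (adjusted p = 0.060), centring on the library median (adjusted p = 0.135 by limma) and a replicate block (adjusted p = 0.055 by limma), and 43.0% of its exon bases overlap Cntd1 on the opposite strand.

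Of the 8 caspase inhibitors 1 fell and 0 rose. Birc5 (survivin), which also serves in mitosis and is a common marker of dividing cells, had 517, 831, 596, 663 and 751 normalised counts in vehicle and 477, 447, 585, 268 and 359.9 in letrozole tumours. It had 709.5, 640.3, 754, 646 and 542 in anti-PD-1 tumours and 679, 462, 575, 399 and 425 in the combination. The averaged difference was -0.54 (interval -0.82 to -0.26, adjusted p = 0.019, limma), and the call held under 35 of 35 alternatives. Among 15 genes of the apoptosome, the caspases and mitochondrial release 0 passed by limma. At an unadjusted p under 0.05 by limma there were 5, beside 4551 of all 19876 genes. The 3 with the smallest p were the protease gene Htra2 (-0.28, adjusted p = 0.082), the channel gene Vdac2 (-0.23, adjusted p = 0.094) and Aifm1 (-0.22, adjusted p = 0.097), and the median of the list was -0.01. Without the 2 libraries that stand apart these 3 were past the threshold of the same comparison by limma, Htra2 at -0.25 (adjusted p = 0.045), Vdac2 at -0.26 (adjusted p = 0.0495) and Aifm1 at -0.28 (adjusted p = 0.013). In that setting 12.6% of all genes were called (2475 of 19574), against 7.00% with all libraries. Htra2 was called in 5, Vdac2 in 2 and Aifm1 in 3 of 35 alternatives. Of the exon bases of Htra2 50.6% overlap Aup1 and Loxl3 on the opposite strand. Of 10 death receptor genes 9 were tested (Fasl was below the filter) and 0 passed by limma. At an unadjusted p under 0.05 by limma there were 2, beside the same 4551 of all genes. Tnfsf10, the TRAIL ligand, was at 0.46, Tnfrsf1a at 0.18 and Ripk1 at 0.17.

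Of 22 regulators of the family 21 were tested (Trp73 was below the filter), 2 fell and 0 rose. Stat5a and Stat5b encode the transcription factors that carry prolactin and growth hormone signals and can drive Bcl2l1. Stat5a had 1579.8, 1501, 1409.8, 1721 and 1389 normalised counts in vehicle and 601, 804, 873, 1013 and 823 in letrozole tumours, with no overlap (3.68% of all genes had none between these groups). It had 1239, 1836, 917, 2017 and 1615 in anti-PD-1 tumours and 813, 992, 771, 863 and 892 in the combination, where a single anti-PD-1 tumour reached down to the combination range. The averaged difference was -0.83 (interval -1.08 to -0.58, adjusted p = 0.00028, limma), 1.78-fold lower, and the difference in letrozole against vehicle was -0.90 (adjusted p = 0.011, limma).

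Stat5b fell less, by 0.37 on the log2 scale (interval -0.49 to -0.24, adjusted p = 0.00085, limma), from 1823 ± 143 in vehicle to 1439 ± 95.4 in letrozole and from 1849 ± 200 in anti-PD-1 to 1397 ± 59.8 in the combination (SD, n = 5). Its 10 tumours with letrozole all lay below the 10 without, from 1309 to 1546 against 1595 to 2115. In this comparison the libraries did not overlap for 0.453% of all genes. Of the luminal epithelial markers 3 of 9 tested (Epcam, Gata3 and Prlr, log2 0.52, 0.45 and 0.43) rose in the averaged comparison by limma. In that comparison 7.00% of all genes were called, and 8 of the 9 markers were higher on average. The summed level of the list ran from 278106 to 335420 normalised counts in vehicle and from 316302 to 377189 in letrozole tumours. It ran from 277554 to 360484 in anti-PD-1 tumours and from 304769 to 368480 in the combination. The other 9 marker lists had higher medians than the luminal list, though only 1 of 7 B cell and 2 of 7 neutrophil markers passed the filter. With 0 called by limma in each, 8 of 8 basal and myoepithelial markers were higher on average (median log2 1.19), 9 of 9 of skeletal muscle (2.10), 8 of 9 of T cells (1.13) and 8 of 8 endothelial (0.43), against a luminal median of 0.16. In letrozole against vehicle the basal median was 2.55 (8 of 8 higher) and the muscle median 3.12 (9 of 9). With antibody in both groups they were 0.40 (5 of 8) and 0.42 (7 of 9). Muscle marker means were 7.09 to 8.18 in letrozole replicates 1, 4 and 5 and combination replicate 2. All other tumours lay between 1.78 and 4.01. The part of these shifts in the results for Bmf, Becn1, Birc5, Stat5a and Stat5b was not tested. For anti-PD-1, averaged over both hormone arms, 0 genes of the 5 lists were called by limma. An unadjusted p under 0.05 by limma was reached by 1 of them, beside 748 of all 19876 genes.

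**Figure D5:**
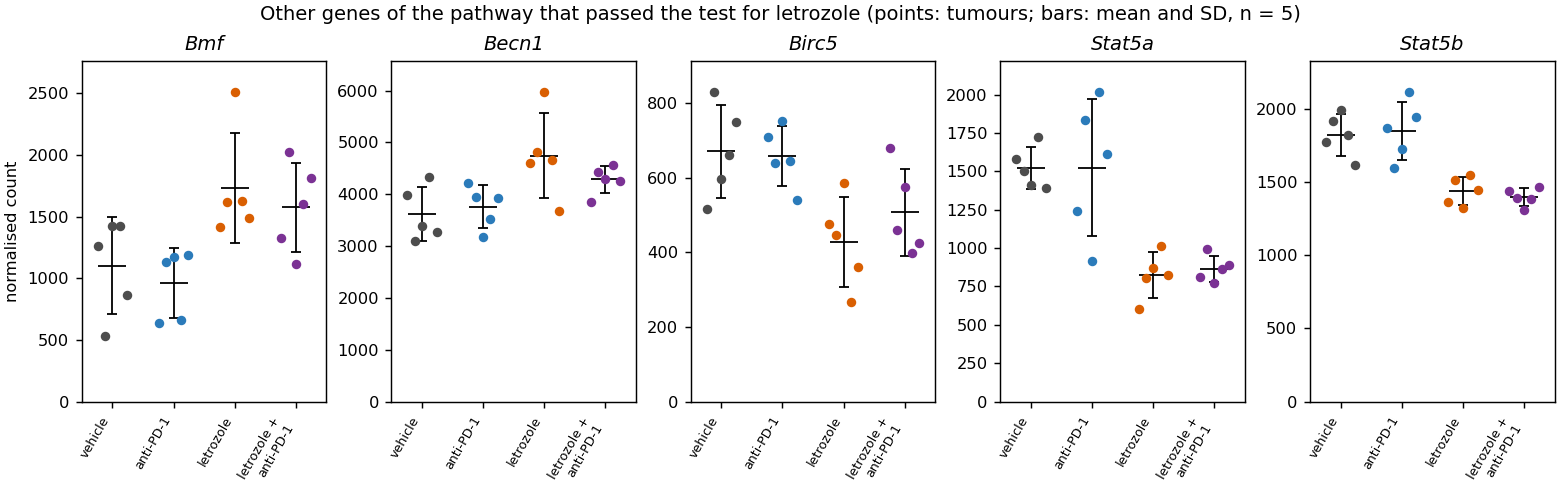
Normalised counts by tumour for the 5 pathway genes outside the 10 that passed the test in the averaged letrozole comparison, with the mean and SD over 5 tumours; axes start at 0. Bmf and Becn1 are higher and Birc5, Stat5a and Stat5b lower in both letrozole groups, and only for Stat5b are the 10 letrozole tumours of both groups all below the other 10. Libraries did not overlap in that comparison for 0.453% of all genes.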

How the data were processed

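RNA-seq was made from total RNA of 20 mammary tumours (Qiagen AllPrep extraction and the Swift Rapid library kit, per the labels' protocols). The submitters' processing notes name STAR 2.7.10a, DESeq2 and GRCm39. How reads were counted, and whether by strand, is not stated in the sources used here. In the table that the authors deposited, with 127442 transcripts, each value is a signal, a count scaled by its library's size factor. Whole reads were recovered from the step between values, at a tolerance of 0.001 for 100% of values, with size factors of 0.472 to 1.46. GENCODE vM21 (GRCm38) named 118889 transcripts (93.3%), and the unnamed held 1.79% to 2.76% of reads.

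The members and lists, and the averaged comparisons, were chosen with earlier results of these data known. The genes named are all 10 members, the genes of each list past the threshold or else the 3 with the smallest p, and genes among the 3 most like each member. The main test was limma 3.58.1 (R 4.3.3) with a trend on log2(value + 1), on 19876 genes with at least 10 in at least 5 libraries, 20 libraries in 1 fit with 16 residual degrees of freedom, two-sided, with Benjamini-Hochberg adjustment over all genes at 0.05. A log2 difference on this scale understates changes of low genes. Alternatives were edgeR 4.0.16 and DESeq2 1.42.0 (both on the recovered reads), other pseudocounts, filters, scalings and transcripts, a replicate block and leaving out libraries.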

Additional observations from a re-analysis of the deposited data

Results flagged for a closer look

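In 84 groups of 5 tumours (21 genes by 4 groups), 6 held a single tumour far from the others, by a gap of more than 0.71 of the group's range, both measured on the log2(value + 1) scale. Chance flags about 1 in 20 groups. Bcl2 in vehicle replicate 3 was at 1461 normalised counts, against 958 to 1030.2 in the other vehicle tumours. Bcl2l11 in vehicle replicate 2 was at 1463, against 1835 to 1995 in the others. Bid in letrozole replicate 1 was at 366, against 419 to 438. Bmf in letrozole replicate 3 was at 2509, against 1418 to 1624. Vdac2, which encodes a channel of the outer mitochondrial membrane, was at 3865 in anti-PD-1 replicate 1, against 4124 to 4189. Tnfrsf1a, a receptor for tumour necrosis factor, was at 2769 in anti-PD-1 replicate 3, against 1688 to 1898.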

How the results depend on the processing

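The count of members past the threshold was 0 in all 8 comparisons and remained 0 under every alternative but 1. Without both libraries that stand apart it was 1 in letrozole against vehicle and 3 in letrozole averaged over both antibody arms. For the members called there, these libraries held the highest values of their groups, so leaving them out raised the differences by construction. Leaving out each library in turn gave counts from 0 to 0 in all comparisons. With the replicate block 0 members were called. The block assumes a pairing that the numbers do not show: deviations of same-numbered tumours had a median correlation of 0.0058 over 30 pairs, from -0.344 to 0.197. Over all alternatives 4 of 2850 member values were called. In 28 of the 80 pairs of a member and a comparison an uncalled estimate changed sign under at least 1 alternative (139 values), and no called value did. The calls of Bmf, Birc5, Stat5a and Stat5b in the averaged comparison held under 35 of 35 alternatives. In letrozole + anti-PD-1 against anti-PD-1, Stat5a kept its call in 27 of 36 and Stat5b in 32 of 36, and in letrozole + anti-PD-1 against vehicle in 32 and 29 of 36. The cause of the lost calls was not tested. Depth limits Pmaip1 most, with 10 reads in its lowest library.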
